A study of Homo sapiens with 12 samples.

Results

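The genes described here are A2M, which encodes the protease inhibitor alpha-2-macroglobulin, and A2M-AS1, a noncoding gene read from the opposite strand at the end of A2M. They are the 2 rows of these names among the 56609 gene symbols of the count table, and both were among the 21698 genes that passed the filter on low counts. A2M was chosen by its fitted log2 fold changes: its level was lower with JQ1 in both genotypes and lower in the knockout in both treatments, and those differences are therefore given as a description without a test. A2M-AS1 was taken by its name. What remained to be tested in A2M was whether the effects of drug and knockout added on the log2 scale. That test uses the same group levels as the differences that chose A2M, so it is not independent of the choice.

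RNA was sequenced from A375, an established human melanoma cell line. Cells were unedited (wild type) or carried a CRISPR/Cas9 knockout of MAPKAPK2, which encodes MK2, a kinase downstream of p38. Both were exposed to 500 nM JQ1, or to its solvent DMSO as control, and harvested after 48 h. The 4 groups were wild type in DMSO, wild type in JQ1, knockout in DMSO and knockout in JQ1, with 3 replicates each. JQ1 displaces the BET bromodomain proteins from acetylated chromatin. The series was made to study why cells without MAPKAPK2 resist such inhibitors better. The labels do not say whether the knockout cells are 1 clone or a pool, or whether replicates are separate cultures, so the spread between replicates may be technical.

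Alpha-2-macroglobulin is a large secreted protein that traps proteases of all classes. A protease that cuts its exposed bait region springs the molecule shut around itself, a reactive thioester helps to hold the prey, and the closed form is cleared through the receptor LRP1. It also carries growth factors and cytokines. In adults the liver is the main source of the plasma protein, and IL6-type cytokines acting through STAT3 are a classical inducer of the gene. Antisense transcripts such as A2M-AS1 are often little expressed, and what A2M-AS1 does in these cells is not known from these data.

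In GENCODE release 29 (GRCh38, the assembly named in the submitters' processing notes), A2M (ENSG00000175899.14) lies on chromosome 12 at chr12:9067664-9116229, on the minus strand. A2M-AS1 (ENSG00000245105.3) lies at chr12:9065177-9068684 on the plus strand, so its end faces the end of A2M. Its start lies 50980 bases from that of the full-length coding transcript of A2M. Of the 2816 exonic bases of A2M-AS1, 561 (19.9%) lie opposite an exon of some A2M transcript. That transcript shares 170 of its own 4844 bases (3.51%) with A2M-AS1, and 56 of these are coding. The last coding exons of A2M are shown because a read from them fits either gene unless its strand is used. In the sense line of the final exon (chr12:9067823-9067839) the stop codon is in capitals, and in the antisense line its complement is. The penultimate exon is at chr12:9068183-9068224.
A2M final coding exon, minus strand: atcttggaaatgctTGA
A2M-AS1 over the same bases, plus strand: TCAagcatttccaagat
A2M penultimate exon, minus strand: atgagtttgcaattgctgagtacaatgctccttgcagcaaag
A2M-AS1 over the same bases, plus strand: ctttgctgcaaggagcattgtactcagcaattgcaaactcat
The libraries were made with a strand-marking kit, per the labels' protocols, but whether the counting used the strand is not given in the sources used here, so A2M-AS1 values are uncertain to that extent.

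A2M-AS1 starts back to back with another noncoding gene, LINC00612, and the 106 bases between their starts (chr12:9065071-9065176, plus strand, from RefSeq on GRCh38.p14) are shown because this stretch is far from the start of A2M. The dinucleotide CG, which reads the same on both strands, is in capitals.
Between LINC00612 and A2M-AS1: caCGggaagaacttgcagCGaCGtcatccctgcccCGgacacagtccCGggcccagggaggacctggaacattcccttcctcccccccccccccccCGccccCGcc
The window of 300 bases around the A2M-AS1 start held 21 CG, and 39.5% of 35116 promoter windows of that length held at least as many.

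The 12 libraries held between 25316899 and 34594295 estimated counts. MAPKAPK2 was at 89.6 ± 2.20 CPM, estimated counts per 1000000 after scaling, in wild type and 12.4 ± 1.15 CPM in knockout without drug, and at 117 ± 4.31 and 14.4 ± 1.61 CPM under JQ1 (SD, n = 3 each). HEXIM1, a gene known to rise when BET proteins are inhibited, rose with JQ1 by 0.79 on the log2 scale in wild type (adjusted p 4.11e-07) and by 0.78 in knockout (adjusted p 3.92e-07), in edgeR's quasi-likelihood test. MYC did not pass in either (adjusted p 0.352 and 0.0601). Knockout JQ1 replicate 3 stood apart from its replicates, with a chi-square per degree of freedom of 27.9 and 29.5 against them where the other replicate pairs ran from 3.50 to 8.04. Of the 9 melanocyte lineage markers, 4 in DMSO and 5 in JQ1 averaged at least 1 CPM, led by SOX10, with a summed level of 511 to 803 CPM over all libraries. The pigment genes TYR, TYRP1 and DCT were near 0.

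A2M was highest in wild-type cells without drug. The 3 wild-type DMSO libraries were at 81.5, 67.8 and 82.1 CPM, from 1916 to 2988 counts. With JQ1 the wild-type libraries were at 19.2, 21.2 and 20.8 CPM. In knockout cells without drug they were at 20.4, 18.5 and 21.7 CPM. These middle groups overlapped each other, and neither overlapped wild-type DMSO or knockout JQ1. The knockout JQ1 libraries were lowest, at 4.38, 4.50 and 3.29 CPM, from 104 to 115 counts, and the lowest of them was replicate 3. The group means were 77.2 ± 8.08, 20.4 ± 1.05, 20.2 ± 1.64 and 4.06 ± 0.666 CPM (SD, n = 3 each). In bulk RNA, fewer cells that express a gene and less RNA per cell cannot be told apart. The sum of 4 fibroblast markers, carried by PDGFRB and LUM, ran from 15.7 to 17.4 CPM in wild-type DMSO, 4.73 to 5.75 in wild-type JQ1, 12.8 to 14.4 in knockout DMSO and 3.29 to 4.02 in knockout JQ1, with 3, 1, 2 and 1 of the 4 above 1 CPM. The sum of 3 keratinocyte markers, nearly all KRT14 with KRT1 at 0, ran from 1.49 to 2.09, 0.503 to 0.879, 1.02 to 1.51 and 0.0406 to 0.317 CPM in the same order, with 1, 0, 1 and 0 of 3 above 1 CPM. The macrophage and leukocyte sum, nearly all CD68 with CD163 at 0, ran from 14.9 to 17.3, 14.1 to 16.8, 10.3 to 16.5 and 8.89 to 9.90 CPM, with 1 of 4 above 1 CPM in each group. The sum of 3 endothelial markers ran from 1.95 to 2.35, 1.13 to 1.30, 1.22 to 1.93 and 0.812 to 1.64 CPM, with 1, 0, 0 and 0 of 3 above 1 CPM. All of these sums were lowest in knockout JQ1 by their lower ends, but the endothelial range there spanned that of wild-type JQ1. Single markers differed. PDGFRB, KRT14, CD68 and VWF had their lowest means in knockout JQ1 (2.22, 0.207, 9.15 and 0.188 CPM). LUM, DCN, COL1A1 and PECAM1 were higher there (0.631, 0.396, 0.521 and 0.922 CPM) than in wild-type JQ1 (0.504, 0.321, 0.365 and 0.712 CPM). PTPRC, CSF1R, CDH5 and KRT5 were too, at lower levels. The part of these markers in the A2M values was not tested. Hepatocyte markers, for the main source of A2M in the body, summed to 0.440 CPM at most, with 0 of 4 above 1 CPM.

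**Figure D1:**
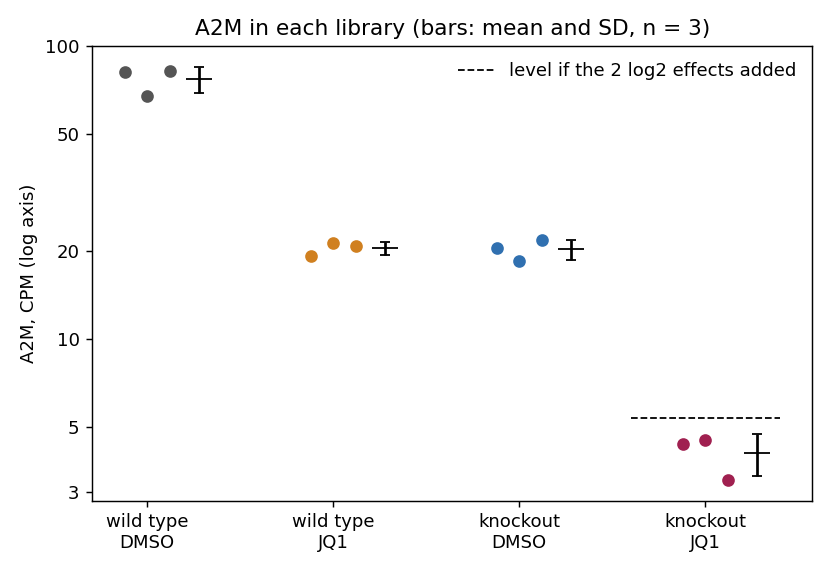
A2M in CPM on a log axis, 1 point per library, with the mean and SD of 3 replicates beside each group. Wild-type JQ1 and knockout DMSO sit together near 20.4 and 20.2 CPM, and the 3 knockout JQ1 libraries lie below the dashed line at 5.34 CPM, the level at which the log2 effects would add.

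The fitted log2 fold change of A2M with JQ1 was -1.92 (SE 0.10) in wild type and -2.33 (SE 0.12) in knockout. JQ1 thus left 26.4% of the A2M level in wild type and 20.1% in knockout. The knockout effect was -1.93 (SE 0.10) in DMSO and -2.34 (SE 0.12) in JQ1, which left 26.2% and 19.9%. These folds chose the gene and are descriptions. The share of all tested genes that passed an adjusted p of 0.05 was 33.1% for JQ1 in wild type, 34.4% for JQ1 in knockout, 7.92% for the knockout in DMSO and 8.57% in JQ1. Genes with a log2 fold change as low as that of A2M, or lower, made up 1.51%, 1.17%, 0.802% and 0.668% of those tested, in the same order. The single effects of drug and knockout were alike in size: wild-type JQ1 and knockout DMSO differed by a log2 value of -0.01 (95% interval -0.23 to 0.21).

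Lower calls in all 4 of these contrasts were made for 175 genes (0.807% of those tested). The contrasts share control libraries, and this count is the one by which A2M was chosen. Ranked by the smallest of the 4 falls, A2M was number 4, after ABCA8, SERPINF1 and PPFIA2, and C3 came next. The levels of these genes differed widely. In wild-type DMSO ABCA8 averaged 3.79 CPM, SERPINF1 13.5, PPFIA2 0.638 and C3 5.34, against 77.2 CPM for A2M. The folds of the rarer ones rest on few counts. SERPINF1 encodes the secreted protein PEDF, and C3 belongs to the same protein family as A2M.

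Additivity was tested with the interaction, the JQ1 effect in knockout less that in wild type. Had the log2 effects added, knockout JQ1 would have been at 5.34 CPM. It was at 4.06 ± 0.666 CPM, 76.0% of that level, and all 3 libraries were below it. The single log2 effects summed to -3.85, while knockout JQ1 against wild-type DMSO was at -4.26, a level 19.2 times lower. The interaction was -0.41 (SE 0.16, 95% interval -0.75 to -0.07), a ratio of 0.755 (0.596 to 0.955) to the additive level. Its unadjusted p was 0.0223, and 8.37% of all tested genes had an unadjusted p under 0.05 in this contrast. Its p adjusted over all genes was 0.509 by edgeR's quasi-likelihood test, so A2M was not among the 0.134% of genes called. The test therefore did not show a departure from additivity, and its interval extends from nearly additive to a further fall of 0.75. Since the interaction is computed from the group levels that chose A2M, its sign and unadjusted p are not free of that choice. How far the choice moved them was not tested.

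The size of this departure rested in part on the library that stood apart. Without knockout JQ1 replicate 3 the interaction was -0.26 (unadjusted p 0.0981, adjusted p 0.472 by edgeR). Leaving out wild-type DMSO replicate 2, the lowest of its group, gave -0.32 (unadjusted p 0.0610), and leaving out knockout DMSO replicate 3, the highest of its group, gave -0.35 (0.0605). Leaving out any other single library gave an unadjusted p from 0.0139 to 0.0475 by edgeR. No adjusted p passed with a library left out, and the lowest was 0.444, without knockout JQ1 replicate 2. The direction was negative with each of the 12 libraries left out, from -0.49 to -0.26. Additivity also depends on the scale. In CPM, JQ1 removed 56.8 CPM of A2M in wild type and 16.2 CPM in knockout, so that the difference of differences was 40.6 CPM with the opposite sign. The group SDs combined (root of their summed squares) came to 8.34 CPM, which is a spread of single libraries and not a standard error. A sum of the CPM differences would have put knockout JQ1 below 0.

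**Figure D2:**
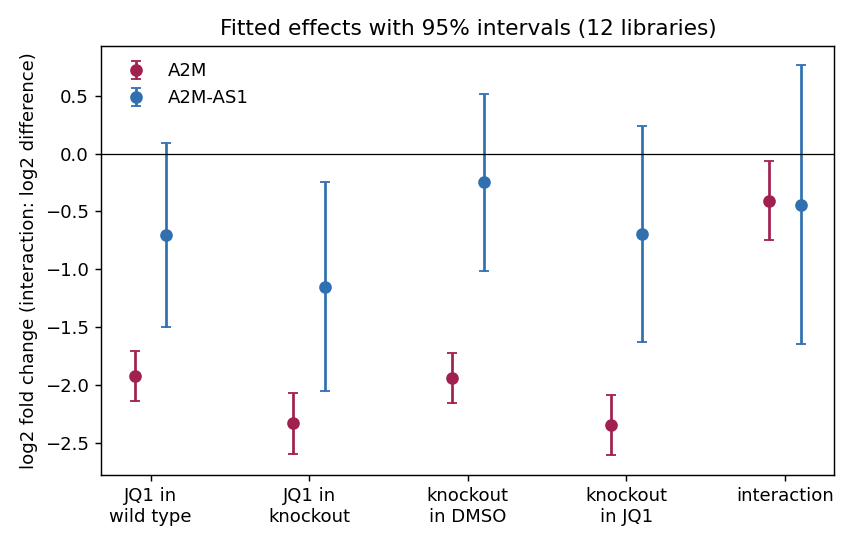
Fitted log2 fold changes of A2M and A2M-AS1 in the 4 simple contrasts and the interaction (a log2 difference), with 95% intervals from the model of all 12 libraries. The A2M values lie between -2.34 and -1.92 in the simple contrasts and at -0.41 for the interaction, and the A2M-AS1 intervals are wide, from -1.01 to 0.52 for the knockout in DMSO.

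A2M-AS1 was rare. Wild-type DMSO libraries held 24, 19 and 17 counts of it (0.715, 0.673 and 0.467 CPM). Wild-type JQ1 libraries held 8, 9 and 18 (0.251, 0.334 and 0.532 CPM). Knockout DMSO libraries held 17, 20 and 9 (0.545, 0.687 and 0.316 CPM). Knockout JQ1 libraries held 8, 5 and 6 (0.305, 0.203 and 0.190 CPM). The groups overlapped in 3 of the 4 simple contrasts. For JQ1 in knockout they stood apart only narrowly, at 9 counts (0.316 CPM) against 8 (0.305 CPM). In that contrast 34.4% of all tested genes passed an adjusted p of 0.05 by edgeR's test. The share of all genes whose groups stand apart was not computed, so this is a description. The summed counts of 60, 35, 46 and 19 have exact 95% Poisson intervals of 45.8 to 77.2, 24.4 to 48.7, 33.7 to 61.4 and 11.4 to 29.7, which cover counting error only.

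By edgeR's quasi-likelihood test, A2M-AS1 was lower with JQ1 in knockout by a log2 fold change of -1.15 (SE 0.42, 95% interval -2.05 to -0.25, adjusted p 0.0469). That call was at the edge of the threshold: DESeq2 gave an adjusted p of 0.0964, and without knockout DMSO replicate 1 or 2 it was 0.110 or 0.178, and without knockout JQ1 replicate 2 or 3 it was 0.114 or 0.136. Leaving out any wild-type DMSO library or wild-type JQ1 replicate 2 gave 0.0532 to 0.0626. JQ1 in wild type gave -0.71 (SE 0.37, -1.50 to 0.09, adjusted p 0.165). The knockout effect was -0.25 (SE 0.36, -1.01 to 0.52, adjusted p 0.780) in DMSO and -0.69 (SE 0.44, -1.62 to 0.24, adjusted p 0.418) in JQ1, and neither passed. In DMSO its sign depended on knockout DMSO replicate 3, without which it was 0.00467. The interaction of A2M-AS1 was -0.44 with an interval from -1.64 to 0.76 (adjusted p 0.890), so a departure from additivity was not detectable at this depth. Single libraries moved these values: without wild-type JQ1 replicate 3, the highest of its group, the interaction was -0.076, the knockout effect in JQ1 -0.33 and the JQ1 effect in wild type -1.07 (adjusted p 0.989, 0.800 and 0.0756). Without knockout DMSO replicate 3 the interaction was -0.69 (adjusted p 0.855). It was -0.67 without wild-type JQ1 replicate 1, -0.68 without knockout JQ1 replicate 1, -0.27 without wild-type DMSO replicate 3 and -0.20 without knockout DMSO replicate 2.

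The fitted falls of A2M were larger than those of A2M-AS1 in each simple contrast, and each A2M value lies below the lower end of the A2M-AS1 interval. These ends were -1.50 and -2.05 for JQ1 in wild type and knockout, and -1.01 and -1.62 for the knockout in DMSO and JQ1, beside A2M values of -1.92, -2.33, -1.93 and -2.34. A2M was chosen by its falls in these contrasts and A2M-AS1 was not, which widens the gap between them, so it is a description. For every 100 A2M counts there were 0.883, 0.983 and 0.582 A2M-AS1 counts in wild-type DMSO, and 1.33, 1.59 and 2.50 in wild-type JQ1. There were 2.69, 3.70 and 1.46 in knockout DMSO, and 6.96, 4.12 and 5.86 in knockout JQ1. The log2 ratio was higher by 1.13 with JQ1 in wild type, 1.18 with JQ1 in knockout, 1.61 with the knockout in DMSO and 1.66 with the knockout in JQ1. Since A2M is the denominator and was chosen for falling in these contrasts, a rise of the ratio is largely fixed by that choice, and no test is given. Per kilobase of the full-length A2M transcript (4844 bases) and the longer A2M-AS1 transcript (2192 bases), the mean level of A2M was 56.5 times that of A2M-AS1 in wild-type DMSO, 24.8 times in wild-type JQ1, 17.7 times in knockout DMSO and 7.90 times in knockout JQ1.

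**Figure D3:**
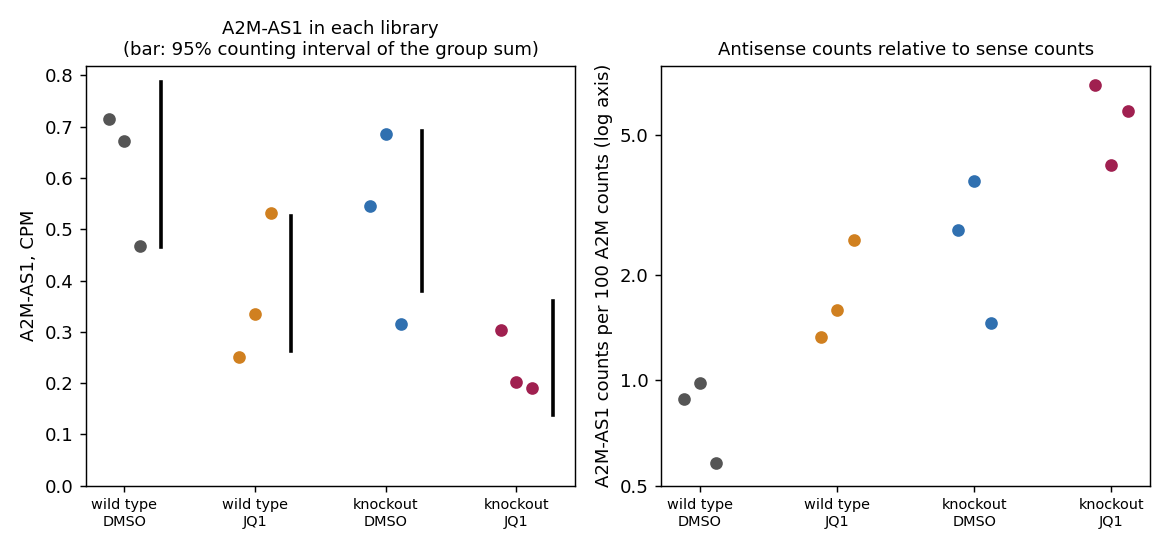
Left, A2M-AS1 in CPM for each library, with the exact 95% counting interval of the group's summed counts; right, A2M-AS1 counts per 100 A2M counts on a log axis. The levels overlap between most groups, while the ratio runs from 0.582 in wild-type DMSO to 6.96 in knockout JQ1.

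Across all tested genes, 16.2% were lower and 16.9% higher with JQ1 in wild type, and 17.8% lower and 16.7% higher with JQ1 in knockout. With the knockout 4.44% were lower and 3.47% higher in DMSO, and 5.56% lower and 3.01% higher in JQ1. For the interaction these shares were 0.101% and 0.0323%. Counts in the groups of related genes below are to be read against them.

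None of the tested protein-coding neighbours of A2M passed as lower. Of the 10 genes on either side in gene order, 7 were tested, A2M-AS1 among them. M6PR, which encodes a mannose 6-phosphate receptor of the lysosomal sorting route, rose with JQ1 by 0.28 in wild type (edgeR adjusted p 0.00107) and by 0.43 in knockout (adjusted p 2.63e-05), and with library totals as the only scaling the wild-type value was 0.15 (adjusted p 0.0558). Apart from A2M-AS1 no other neighbour passed in any contrast: PHC1, a Polycomb gene, had log2 fold changes between -0.14 and 0.03 in the simple contrasts. LINC00612, back to back with A2M-AS1, was at 0.509 ± 0.135 CPM in wild-type DMSO and between 0.301 and 0.317 CPM in the other groups. The median log2 fold change of the 7 in the knockout contrast was -0.11 in DMSO and -0.04 in JQ1, against 0.00 for all tested genes. The unprocessed pseudogene A2MP1 had at most 3 counts in a library. The coding neighbours A2ML1 and PZP were also below the filter and not tested. PZP, at 0 to 14 counts a library, averaged 0.372 CPM in wild-type DMSO and 0.142 CPM in wild-type JQ1. In knockout it averaged 0.136 CPM in DMSO and 0.0633 CPM in JQ1.

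The relatives of A2M were examined as a list of 8 thioester proteins, which like the lists below came from general knowledge with earlier results of these data known. Only 4 had enough counts to be tested: A2ML1 and CPAMD8 had at most 2 and 1 counts in a library, PZP at most 14, and C4B also fell below the filter. C3, the central complement component, was lower in all 4 contrasts, as A2M was. It went from 5.34 ± 0.488 CPM in wild-type DMSO to 1.32 ± 0.220 CPM with JQ1, 0.977 ± 0.117 CPM in knockout and 0.283 ± 0.151 CPM in knockout with JQ1 (SD, n = 3). Its log2 fold change was -2.01 with JQ1 in wild type (adjusted p 2.48e-06) and -2.45 with the knockout in DMSO (adjusted p 2.55e-06), with an interaction of 0.22 (adjusted p 0.931). CD109, a cell-surface member of the family, fell with JQ1 by 0.75 in wild type (adjusted p 1.19e-06) and by 0.85 in knockout (2.87e-07), from group means of 383 and 336 CPM without drug. Its knockout effect was -0.19 in DMSO (adjusted p 0.120) and -0.29 in JQ1 (0.0153), and the latter had an adjusted p of 0.0980 in a fit of only the groups compared, and of 0.0522 or 0.0671 without wild-type JQ1 replicate 2 or 3. C4A, a complement gene named here after its values were seen, was under 1 CPM in all groups and shares nearly all its sequence with C4B, so the split of reads between them is uncertain. C4A was at 0.786, 0.814, 0.716 and 0.182 CPM in the 4 groups, with a log2 fold change of -1.96 for JQ1 in knockout (adjusted p 0.00112) and -2.14 for the knockout in JQ1 (adjusted p 0.00213). C4B went the other way, at 0, 0.0742, 0.185 and 0.493 CPM, so the C4A values cannot be read as a fall of the pair. C5, the last of the tested relatives, passed in no contrast. Of the 4, 2 were lower with JQ1 in wild type and 3 in knockout, and 1 was lower with the knockout in DMSO and 3 in JQ1, with no higher call, and both counts of 3 include C4A. The count of 1 was 2 without knockout JQ1 replicate 3 and in a fit of only the groups compared.

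The receptor side comprised 8 genes for receptors that take up closed A2M and for proteins that assist or bind them, of which 7 were tested. LRP1, the clearance receptor, fell with JQ1 from 109 to 73.6 CPM in wild type (log2 fold change -0.56, adjusted p 0.00906) and from 94.2 to 61.3 CPM in knockout (-0.62, adjusted p 0.00512). Its knockout effects were -0.21 and -0.26 and did not pass (adjusted p 0.500 and 0.368). LRP1B, a less expressed relative at 4.64 CPM in wild-type DMSO, had -1.08 and -1.66 with JQ1 (edgeR adjusted p 1.29e-04 and 7.02e-06). The knockout effect of LRP1B was -0.49 in DMSO (adjusted p 0.0743) and -1.08 in JQ1 (0.00218). LRPAP1, the chaperone that keeps LRP1 from binding ligands too early, rose with JQ1 by 0.73 in wild type (adjusted p 7.27e-06) and by 0.76 in knockout (3.67e-06), the opposite direction to LRP1. HSPA5, an endoplasmic reticulum chaperone that at the cell surface has been described as a receptor for activated A2M, rose with JQ1 by 0.46 and 0.39 and was higher in knockout DMSO by 0.27. VLDLR rose with JQ1 by 0.67 and 1.28, and was lower in knockout DMSO by a log2 value of -0.64. In all, 2 of the 7 were lower and 3 higher with JQ1 in each genotype, 2 lower and 1 higher with the knockout in DMSO, and 1 lower and 2 higher in JQ1. In a fit of only the groups compared, the count for the knockout in JQ1 was 1 in place of 3.

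Of 40 proteases that A2M can trap, 18 were expressed enough to be tested. Plasminogen, thrombin, neutrophil elastase and trypsins were among the 22 that were not. With JQ1 in wild type 5 of 18 were lower and 6 higher, and in knockout 4 were lower and 7 higher. The median log2 fold change was 0.15 in wild type and 0.13 in knockout, against -0.03 and 0.00 for all tested genes. CTSL, the lysosomal cathepsin L, rose by 0.78 and 0.99, and PLAT, tissue plasminogen activator, by 0.87 and 0.78. MMP15, a membrane metalloprotease, rose from 7.90 to 23.5 CPM in wild type (1.57, adjusted p 1.88e-06) and from 8.78 to 27.0 CPM in knockout (1.63, adjusted p 1.12e-06). With the knockout 1 of 18 was lower and 3 higher in both treatments. ADAMTS5, an aggrecan-cutting protease, was higher by 1.92 in DMSO (adjusted p 6.60e-04) and by 2.46 in JQ1 (1.00e-04). ADAMTS12, of the same family, was lower in all 4 contrasts, as A2M was. Its log2 fold change was -0.45 and -1.15 with JQ1, -0.34 with the knockout in DMSO and -1.05 in JQ1 (adjusted p 1.98e-06). The call for the knockout in DMSO was lost in 5 of 22 alternative fits.

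Among 12 growth factors and cytokines that A2M binds, 8 were tested. CXCL8, the chemokine interleukin-8, was lower in all 4 contrasts, as A2M was. Without drug it was at 30.9 CPM in wild type and 8.21 CPM in knockout, and with JQ1 at 13.7 and 1.86 CPM. Its log2 fold change was -1.18 and -2.16 with JQ1 and -1.91 and -2.90 with the knockout, and its interaction of -0.98 did not pass (adjusted p 0.0972). TGFB1 rose with JQ1 by 0.79 and 0.84, while FGF2 fell by 0.50 and 0.65. JQ1 lowered 5 and raised 2 of the 8 in wild type, and lowered 4 and raised 2 in knockout. The knockout lowered 3 in DMSO and 1 in JQ1, with no higher call. Without knockout DMSO replicate 2 the count of 3 was 1, and without knockout JQ1 replicate 3 the count of 1 was 2. VEGFA, among the 3, had -0.40 in that contrast, with an adjusted p of 0.0589 without wild-type DMSO replicate 2, 0.0543 without knockout DMSO replicate 2 and 0.197 with the authors' factors.

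The route by which IL6-type cytokines induce A2M was measured through 20 genes, of which 18 were tested. IL6 itself had at most 1 count in a library. STAT3, the transcription factor of the route, was at 99.3 CPM in wild type and 131 CPM in knockout without drug, and at 136 and 165 CPM with JQ1, so its mRNA was highest where that of A2M was lowest. Its log2 fold change was 0.45 (adjusted p 9.96e-05) and 0.33 (0.00107) with JQ1, 0.40 (0.00138) with the knockout in DMSO and 0.28 (0.0153) in JQ1. That last adjusted p was 0.0688 in a fit of only the groups compared, and 0.0529 or 0.0760 without wild-type JQ1 replicate 2 or 3. JAK1, a kinase that activates STAT3, rose with JQ1 by 0.53 and 0.43, and OSMR, the oncostatin M receptor, by 0.49 and 0.40. IL11, an IL6-type cytokine, rose by 1.63 and 1.95. IL6R, the IL6 receptor, fell with JQ1 by 1.23 and 0.74. JQ1 raised 9 and lowered 3 of the 18 in wild type, and raised 7 and lowered 3 in knockout. The knockout in DMSO raised 2 and lowered 1, and these 3 calls became 1 without wild-type DMSO replicate 1, 7 without knockout JQ1 replicate 3 and 6 in a fit of only the groups compared. The knockout in JQ1 raised 1 and lowered 1, and 0 were called without wild-type JQ1 replicate 2 or in a fit of only the groups compared. Leaving out any other single library gave 1 to 3. These are mRNA levels, and STAT3 phosphorylation was not measured.

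Other inhibitors of proteases, 38 in the list and 26 tested, divided evenly with JQ1 in wild type (9 lower, 9 higher) and nearly so in knockout (10 lower, 9 higher). With the knockout 5 were lower and 2 higher in DMSO, and 7 lower and 1 higher in JQ1. The 8 calls in JQ1 became 4 in a fit of only the groups compared or without wild-type JQ1 replicate 2, and 5 without wild-type DMSO replicate 2 or 3. The medians were -0.21 in DMSO and -0.19 in JQ1, against 0.00 for all tested genes. SERPINF1 was lower in all 4 contrasts, at 13.5, 0.758, 3.41 and 0.101 CPM in the 4 groups. Its log2 fold changes were -4.19 and -4.92 with JQ1 and -1.98 and -2.71 with the knockout, the last with an adjusted p of 0.0531 in a fit of only the groups compared. SPINT1, a membrane serine protease inhibitor named after its values were seen, had -2.69 and -3.16 with JQ1 and -1.55 with the knockout in DMSO, while its -2.03 for the knockout in JQ1 did not pass (adjusted p 0.132). TIMP3, a metalloprotease inhibitor held in the matrix, was also lower in all 4 contrasts, by smaller amounts. It fell with JQ1 by 0.98 and 0.84, and its knockout effect was -0.43 in DMSO and -0.29 in JQ1. The last had an edgeR adjusted p of 0.0526 without wild-type JQ1 replicate 2. TIMP1, a secreted relative, rose with JQ1 by 1.14 and 1.04. TFPI2, a matrix serine protease inhibitor, rose with JQ1 by 1.23 and 1.39 and was lower with the knockout (-0.88 and -0.72). TFPI and PI15, also in the list, were lower with JQ1. Over 22 alternative fits TFPI had -3.25 to -2.90 in wild type and -3.08 to -2.56 in knockout. PI15 had -2.02 to -1.74 and -2.47 to -2.06. Its knockout effect in JQ1 was -0.85 to -0.44, and that call was lost in 13 of the 22. SERPINA3, an acute-phase inhibitor named after its values were seen, had positive log2 fold changes in all 4 contrasts (0.69, 0.54, 0.81 and 0.67), the opposite sign to A2M. It was not followed through the alternative fits.

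Outside these lists, likeness to A2M was measured as Pearson's r of log2 CPM over the 12 libraries, among 15733 genes. The 12 libraries fall into the 4 groups that chose A2M, so r describes the shared group pattern. The 8 most alike were SNX9 (r 0.994), CTSK (0.994), SPOCK1 (0.993), ACP5 (0.990), MTR (0.990), RHOU (0.989), HDAC9 (0.988) and GLUL (0.985), and the next gene was at 0.984. With Spearman's rho 2 of these 8 stayed among the first 8. A2M-AS1 had an r of 0.760 and a rho of 0.601.

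High r did not mean an equal size of change. SNX9, a sorting nexin of endocytosis, had log2 fold changes of -0.36 with JQ1 in wild type and -0.44 with the knockout in DMSO, against -1.92 and -1.93 for A2M. MTR, methionine synthase, had -0.24 and -0.27. ACP5, the tartrate-resistant acid phosphatase, was nearer in size with -1.61 and -1.72, and its knockout JQ1 level was 0.533 CPM. CTSK, the collagen-cutting cathepsin K, was at 15.5 CPM in wild type and 6.81 CPM in knockout without drug, and at 6.37 and 2.63 CPM with JQ1. Similar levels in wild-type JQ1 and knockout DMSO are favoured by the choice through r. SNX9 (60.1 and 56.8 CPM) and MTR (104 and 102 CPM) had them too. MTR and RHOU lie distal to the edited gene MAPKAPK2 on chromosome 1, and any part of that position in their values was not tested.

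**Figure D4:**
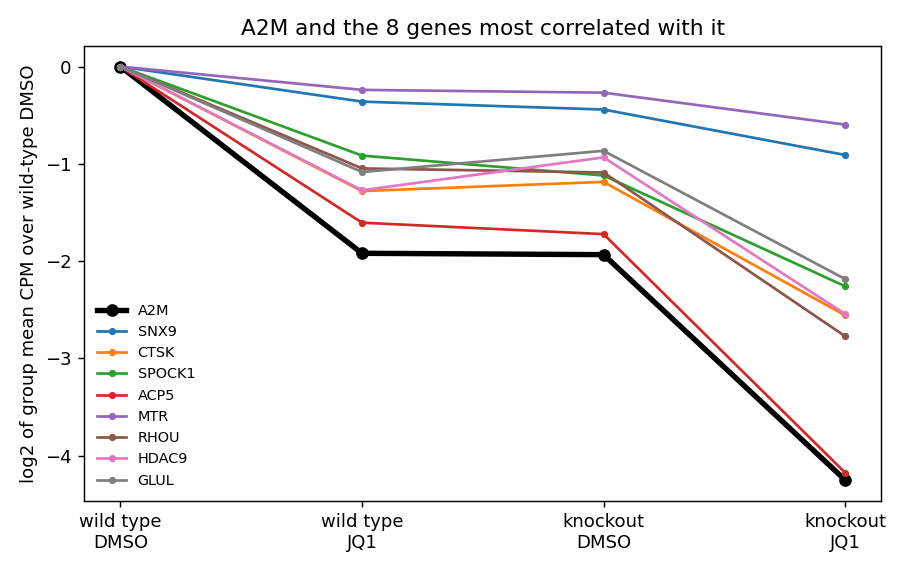
Group mean CPM of A2M and the 8 genes most like it, as log2 over the wild-type DMSO mean, 1 line per gene over the 4 groups. All 9 genes are lowest in knockout JQ1, with the deepest falls in A2M and ACP5 and shallow ones in MTR and SNX9.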

How the data were processed

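The study measured rRNA-depleted total RNA, from strand-marked libraries per the labels' protocols. Deposited by the authors were estimated counts per gene symbol and a second table of normalized signal, which equals the estimated count divided by a factor for gene and library. The submitters' processing notes name Trim Galore, cutadapt, FastQC, MultiQC, kallisto, DESeq2 and GRCh38.p10, without versions. Titles call the controls untreated while the treatment field says DMSO, which was followed.

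Estimated counts were rounded to whole numbers, filtered with edgeR's filterByExpr and scaled by TMM. A quasi-likelihood model with 1 term per group over all 12 libraries was fitted in edgeR 4.0.16 (R 4.3.3), and p-values were adjusted (Benjamini-Hochberg) across all 21698 genes that entered it with a threshold of 0.05. Fold changes carry a prior count of 0.125. CPM are per 1000000 TMM-scaled counts, and intervals of counts are exact Poisson at 95%. The test was checked on simulated data. Of genes changed by a log2 value of 1, 91% were recovered for the knockout in JQ1 (21110 genes) and 74% for the interaction (21117 genes). At 2 these shares were 98% and 99%, and there were 11 and 6 false calls. Only genes averaging at least 1 CPM were changed, and by no smaller value. The check therefore does not cover a change as small as the A2M interaction, or A2M-AS1.

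The members and gene lists were chosen with earlier results of these data known. Named were A2M, A2M-AS1, MAPKAPK2, HEXIM1, MYC, the 8 genes most like A2M among those with at least 1 CPM in wild-type DMSO (log2 CPM with a prior count of 2), called neighbours, and up to 6 called members per list with at least 1 CPM in a group. Alternatives were other scalings (DESeq2 1.42.0 size factors, library totals, the deposited signal's factors), DESeq2, limma 3.58.1, no filter, only the groups compared, a replicate block, each library left out, a threshold of 0.01 and a prior count of 2.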

Additional observations from a re-analysis of the deposited data

Results flagged for a closer look

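ADAMTS12, a protease that A2M can trap, responded to JQ1 differently in the genotypes: its log2 fold change was lower in knockout than in wild type by -0.70 (SE 0.12, adjusted p 0.0306 by edgeR's test of the interaction). Without drug it was at 42.3 CPM in wild type and 33.4 CPM in knockout, and with JQ1 at 31.0 and 15.0 CPM. The difference kept its sign in all 21 alternatives, from -0.87 to -0.65, and its adjusted p was above 0.05 in 8 fits that left out 1 library: replicate 2 or 3 of wild-type DMSO, any of wild-type JQ1, replicate 1 or 3 of knockout DMSO, or replicate 2 of knockout JQ1 (adjusted p from 0.0615 to 0.150).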

How the results depend on the processing

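The 4 simple log2 effects of A2M kept their direction in all 22 alternatives (JQ1 in wild type -2.05 to -1.87, in knockout -2.44 to -2.18; knockout in DMSO -2.01 to -1.86, in JQ1 -2.42 to -2.20). The A2M interaction stayed between -0.49 and -0.26 on the log2 scale (adjusted p 0.305 to 0.760). In linear CPM it was 40.6, of the opposite sign, as JQ1 removed 56.8 CPM in wild type and 16.2 CPM in knockout. The replicate numbers did not pair the libraries: deviations of same-numbered libraries correlated at -0.115 to 0.0786, and 2 of 12 libraries correlated best with their own number. With a replicate block the A2M interaction was -0.41 (adjusted p 0.612) and A2M-AS1 with JQ1 in knockout was -1.13 (0.0719). That A2M-AS1 call was also lost with the authors' factors (-1.14, 0.0509), DESeq2 (-1.15, 0.0964), limma-voom (-1.07, 0.0693), limma on the deposited signal (-1.005, 0.0541) and no filter (-1.15, 0.0647), and ranged from -1.39 to -0.90 with 1 library left out. The A2M-AS1 knockout effect in DMSO ranged from -0.49 to 0.00467 with 1 library left out. Genes called numbered 7187 for JQ1 in wild type (4781 at an adjusted p of 0.01). For the knockout in DMSO there were 1718, with 2619 when only the groups compared were fitted, 926 at 0.01, and 1092 to 2650 with 1 library left out (2650 without knockout JQ1 replicate 3). For the knockout in JQ1 there were 1860, with 922 from only the groups compared, 965 at 0.01, and 1223 (without wild-type JQ1 replicate 2) to 2331 (without knockout JQ1 replicate 3) with 1 library left out. For the interaction there were 29, with 130 by DESeq2, 236 without the filter, 6 at 0.01, and 8 to 88 with 1 library left out. The causes were not tested. With library totals as the only scaling, JQ1 calls were 5368 lower and 2298 higher in wild type (3522 and 3665 with TMM), 5250 and 2409 in knockout (3856 and 3616), and knockout calls in DMSO were 1158 and 516 (964 and 754), as the median of all tested genes lay at -0.16, -0.12 and -0.05. DESeq2 gave no adjusted p for the A2M-AS1 interaction, and a fit of only the groups compared has no interaction. At 5 to 24 counts a library, depth limits every A2M-AS1 value.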
